A study of Mus musculus with 7 samples.

Results

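Regulators of G protein signalling (Rgs genes) encode proteins that switch off G protein signals. Transcripts of 8 of them, Rgs1, Rgs2, Rgs3, Rgs10, Rgs14, Rgs16, Rgs18 and Rgs19, were measured by messenger RNA sequencing of mouse samples whose label is CD8+ T cells, lymphocytes that kill infected or tumour cells. The 8 are among 21 genes named Rgs plus a number and among 56422 gene symbols in the table, and each was found by its symbol, with the TPM (transcript abundance corrected for length and scaled to the same total in each library) of its transcript rows summed. They were chosen by their levels and treated against control differences in these same libraries, so those differences are given as a description and were not tested. The samples were isolated from ascites, the fluid of the abdomen, in mice that model peritoneal metastasis: 3 libraries from mice given propionate together with butyrate, short-chain fatty acids that gut bacteria make, and 4 from untreated controls. The series as a whole concerns mannose, gut microbial metabolites and PD-1 blockade in ovarian cancer. The labels give no strain, tumour line, age, dose, time or PD-1 treatment for either group, nor a gate by which the cells were isolated, and their extraction text speaks of tissue. They do not say that each library came from its own animal, so the spread between libraries may be technical.

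A receptor coupled to a G protein loads the alpha subunit with GTP, which frees the beta and gamma subunits, and both parts then signal. RGS proteins speed up the hydrolysis of that GTP and so shorten the signal. In lymphocytes the receptors concerned include those for chemokines and sphingosine 1-phosphate, which steer migration, and Rgs1 and Rgs16 are known to damp migration towards chemokines. Rgs1, Rgs2, Rgs3, Rgs16 and Rgs18 belong to the subfamily of mostly small regulators that also holds Rgs4. Rgs10 and Rgs14 belong to the subfamily of Rgs12, and Rgs19 to that of Rgs20.

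The labelled cell type was present but was not the main source of marker transcripts. All 17 T cell markers passed the expression filter (1 TPM or more in 3 or more of the 7 libraries). Their summed TPM was 701.4 to 2968 in treated libraries and 143.3 to 250.4 in control libraries (exact permutation test, two-sided, p = 0.0286, which is the lowest value possible with 35 splits, Benjamini-Hochberg adjusted p = 0.0629 over 11 marker lists). The 17 included the co-receptor chain Cd8a, at 54.25 to 242.23 TPM in treated and 7.95 to 17.98 TPM in control libraries, and the receptor chain Cd3e, at 43.17 to 172.68 TPM in treated and 5.47 to 13.07 TPM in control libraries. Natural killer cell markers, of which 4 of 8 passed the filter, summed to 213.3, 667.6 and 156.9 TPM in treated libraries and 25.19 to 50.73 TPM in control libraries, a ratio of means of 8.90 beside 8.38 for T cell markers. That list includes Eomes and Nkg7, and the part of T cells in its sum was not tested. Macrophage and monocyte markers summed to 3851 to 4344 TPM in treated and 6300 to 15180 TPM in control libraries, with 16 of 16 detected above the filter. The exact permutation test of this sum gave p = 0.0857 (Benjamini-Hochberg adjusted p = 0.135). Of the 16 genes, limma called 1 higher and 2 lower at an adjusted p under 0.05, beside 4.30% and 7.59% of all genes tested. Epithelium and mesothelium markers summed to 873.4 to 1660 TPM in treated and 2320 to 2786 TPM in control libraries, with 11 of 14 above the filter. Control replicate 3 held the 15180 TPM of macrophage markers. The third treated library, whose column carries no usable replicate number, had 32.9% of its TPM in mitochondrially encoded genes, against 13.6% to 18.2% in the other 6 libraries. In such mixtures, more cells of a type and more RNA per cell cannot be told apart.

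Promoters of 5 of the 8 regulators are in the RefSeq table (GRCm38.p6, an earlier build than the mm39 named in the submitters' processing notes). Those of Rgs16, with the largest positive difference, of Rgs2, with a small one, and of Rgs10, the gene whose treated libraries all lay below the controls, are printed here, from 250 bases before to 50 after the annotated start. Capitals mark GC boxes (GGGCGG), boxes spelled CCAAT, the core of the cyclic AMP response element (TGACG) and TATA-like runs (TATAAA), on either strand. The Rgs16 promoter lies at chr1:153740103-153740402 on the plus strand, the Rgs2 promoter at chr1:144004100-144004399 on the minus strand and the Rgs10 promoter at chr7:128418123-128418422 on the minus strand.
Rgs16: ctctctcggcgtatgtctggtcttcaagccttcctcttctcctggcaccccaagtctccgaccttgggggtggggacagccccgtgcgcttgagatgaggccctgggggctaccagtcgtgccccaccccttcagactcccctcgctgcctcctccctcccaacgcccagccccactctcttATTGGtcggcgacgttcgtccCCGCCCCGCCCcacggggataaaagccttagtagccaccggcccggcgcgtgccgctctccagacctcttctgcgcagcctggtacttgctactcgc
Rgs2: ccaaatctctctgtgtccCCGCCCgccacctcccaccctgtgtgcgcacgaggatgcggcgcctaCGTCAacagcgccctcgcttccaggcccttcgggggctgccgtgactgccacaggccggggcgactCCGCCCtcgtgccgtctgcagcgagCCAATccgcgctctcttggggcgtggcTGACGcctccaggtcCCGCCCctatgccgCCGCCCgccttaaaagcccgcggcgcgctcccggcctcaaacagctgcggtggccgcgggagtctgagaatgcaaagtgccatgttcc
Rgs10: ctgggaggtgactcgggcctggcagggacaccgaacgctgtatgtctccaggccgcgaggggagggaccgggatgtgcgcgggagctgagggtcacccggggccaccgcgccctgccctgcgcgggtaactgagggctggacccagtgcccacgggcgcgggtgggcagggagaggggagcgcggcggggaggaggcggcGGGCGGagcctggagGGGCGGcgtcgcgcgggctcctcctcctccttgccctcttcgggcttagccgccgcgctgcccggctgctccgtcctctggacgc

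All 3 promoters were rich in G and C, at 66% for Rgs16, 70% for Rgs2 and 76% for Rgs10, against a median of 52.7% over the 32851 promoters in the table. Those not printed ran from 49.7% to 58.7% for Rgs3 and from 53.3% to 72.7% for Rgs19. The Rgs16 promoter held 2 GC boxes that overlap by a base and 1 CCAAT box. That of Rgs2 held 4 GC boxes, 1 CCAAT box and 2 cores of the cyclic AMP response element, and that of Rgs10 held 2 GC boxes. Of all promoters, 35.7% held a GC box, 37.4% a CCAAT box, 20.8% the response element core and 13.6% the TATA-like run. The letters of the E box (CACGTG, in 7.15% of all promoters) and of an AP-1 site (TGANTCA, 7.81%) were in none of the 3. The TATA-like run was also in none of the 3, and each Rgs3 promoter held 1. These matches describe letters only.

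Rgs16, which activated T cells express, differed most. It stood at 11.08, 59.03 and 16.44 TPM in treated replicates 1 and 2 and the third treated library, against 3.12, 2.29, 1.81 and 1.36 TPM in control replicates 1 to 4. The groups did not overlap, and treated replicate 2 lay far above the other treated libraries. The mean was 28.9 ± 26.3 TPM in treated (SD, n = 3) and 2.15 ± 0.753 TPM in control libraries (SD, n = 4), and the log2 fold change was 2.92 (SE 0.41) on the log2(TPM + 1) scale, or 2.24 without treated replicate 2 and 1.98 with a pseudocount of 5. On this scale changes of low genes are understated. Per 100 TPM of T cell markers, Rgs16 was at 0.842, 1.99 and 2.34 TPM in treated libraries and at 1.66, 1.09, 1.26 and 0.543 TPM in control libraries. These ratios overlapped between the groups. Natural killer cell markers were also highest in treated replicate 2, and their part in the Rgs16 values was not tested.

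Rgs1, a damper of chemokine responses in B and T cells, was the most abundant of the 8 in treated libraries by its mean. It stood at 79.95, 201.27 and 112.69 TPM in treated libraries, against 17.8, 3.88, 124.74 and 29.22 TPM in control replicates 1 to 4. Control replicate 3 lay above 2 of the 3 treated libraries, so the groups overlapped, and the controls spanned a wider relative range than the treated libraries. The mean was 131 ± 62.8 TPM in treated (SD, n = 3) and 43.9 ± 54.9 TPM in control libraries (SD, n = 4). The log2 fold change of 2.34 (SE 0.72) was 3.13 without control replicate 3 and 1.57 without control replicate 2, the libraries at the ends of the control range.

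Control replicate 3 was also the highest control in markers of several other cells. Summed macrophage markers were 15180 TPM there against 6300 to 7122 TPM in the other 3 controls, and neutrophil markers were 432.2 TPM against 19.67 to 118.1 TPM. B and plasma cell markers, of which 10 of 10 passed the filter, were at 111.5, 152.1 and 123.8 TPM in treated libraries and at 92.07, 49.5, 163 and 143.1 TPM in control replicates 1 to 4. Control replicate 2, lowest in Rgs1, was lowest in B and plasma cell and neutrophil markers, and lowest in macrophage markers by a narrow margin. Per 1000 TPM of macrophage markers, Rgs1 was at 18.4, 52.3 and 26.1 TPM in treated and 2.50, 0.616, 8.22 and 4.64 TPM in control libraries, which did not overlap. This was not particular to Rgs1, as the macrophage sum itself had a ratio of means of 0.478, treated over control. Rgs2, Rgs3, Rgs14, Rgs16 and Rgs19 also lay higher in all treated libraries on this base, while Rgs10 and Rgs18 overlapped. Per 100 TPM of T cell markers, Rgs1 was at 6.08, 6.78 and 16.1 TPM in treated and 9.46, 1.84, 87.0 and 11.7 TPM in control libraries, which overlapped. In neither marker sum did the groups overlap, and the part of these cells in the Rgs1 values was not tested.

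Rgs14, which joins its RGS domain to a motif that binds Gi alpha subunits, also had groups that did not overlap. It was at 6.6, 14.86 and 5.94 TPM in treated libraries, against 3.51, 2.81, 5.2 and 3.16 TPM in control libraries. The mean was 9.13 ± 4.97 TPM in treated (SD, n = 3) and 3.67 ± 1.06 TPM in control libraries (SD, n = 4), and the log2 fold change was 1.04 (SE 0.29), or 0.66 without treated replicate 2 and 0.66 with a pseudocount of 5. As for Rgs16 and Rgs1, the highest value was in treated replicate 2, which also held the most T cell marker TPM, 2968 against 1316 and 701.4 in the other treated libraries. Per 100 TPM of T cell markers, Rgs14 was at 0.502, 0.501 and 0.847 TPM in treated libraries and at 1.87, 1.33, 3.63 and 1.26 TPM in control libraries, so that on this base the treated libraries were the lower group. This was not particular to Rgs14, as the T cell marker sum itself had a ratio of means of 8.38, treated over control. Rgs2, Rgs3, Rgs10 and Rgs19 also lay lower in all treated libraries on this base, while Rgs1, Rgs16 and Rgs18 overlapped.

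**Figure D1:**
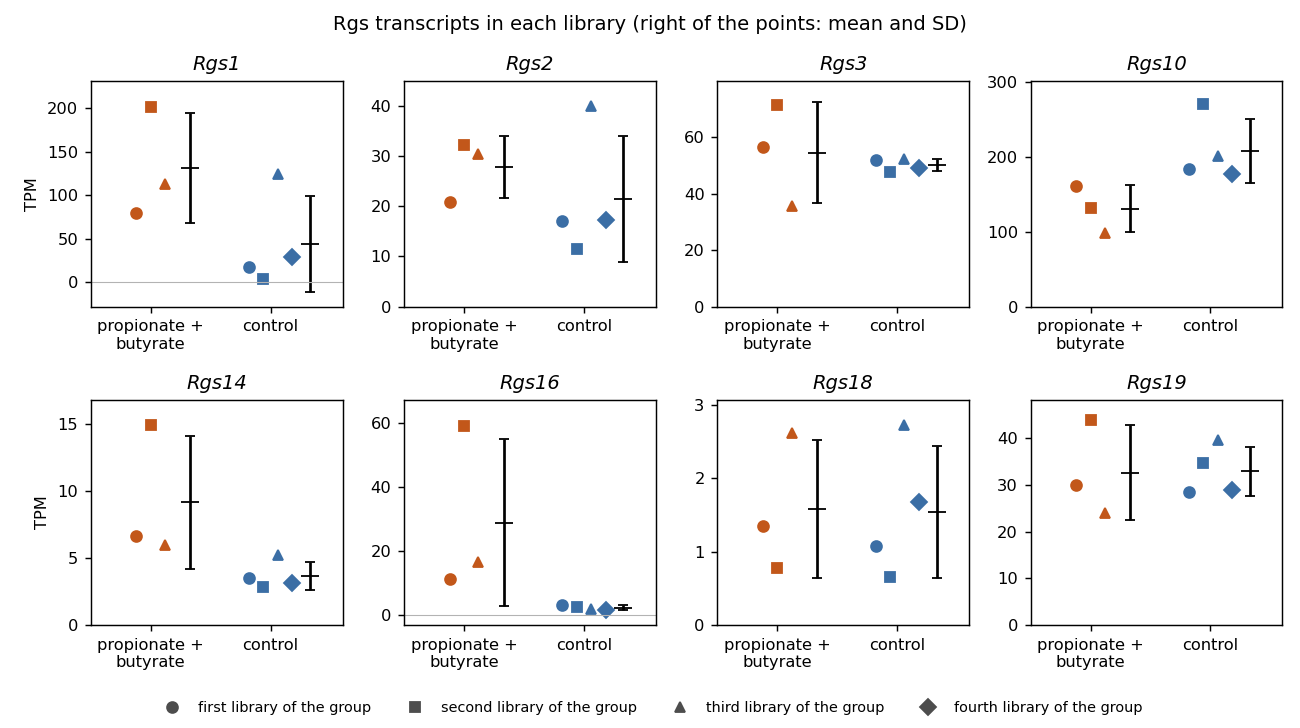
TPM of the 8 regulators in each library, with propionate and butyrate (orange) left of control (blue) on axes that start at or below 0. Symbols mark the libraries within a group, and the black bar at the right of each group is the mean with its SD. Rgs14 and Rgs16 lie higher in all treated libraries, Rgs10 lower, and the other 5 overlap.

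Rgs2, which acts mainly on Gq alpha subunits, overlapped between the groups. It was at 20.75, 32.24 and 30.46 TPM in treated libraries, against 17.03, 11.52, 39.88 and 17.22 TPM in control libraries, with the highest value again in control replicate 3. The log2 fold change was 0.48 (SE 0.32), or 0.82 without that library, 0.25 without control replicate 2 and 0.76 with median-of-ratios scaling. Rgs1 and Rgs2 ranked the 4 controls in the same order, and over the 7 libraries their log2(TPM + 1) values had a Pearson correlation of 0.93, the largest among the 28 pairs of the 8 genes. This correlation describes 7 points that share their libraries and cell mixture.

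Rgs10, a small regulator that acts on Gi alpha subunits and is abundant in microglia and other myeloid cells, ran the other way. It was at 161.22, 131.66 and 98.7 TPM in treated libraries, against 183.7, 270, 200.68 and 176.16 TPM in control libraries, and every treated library lay below every control. The mean was 130.5 ± 31.3 TPM in treated (SD, n = 3) and 208 ± 42.8 TPM in control libraries (SD, n = 4), and the log2 fold change was -0.67 (SE 0.22). With median-of-ratios scaling it was -0.39. The median log2 fold change of all 14967 genes tested was -0.24, and 25.7% of them also had all treated libraries below all controls. Per 1000 TPM of macrophage markers, Rgs10 was at 37.1, 34.2 and 22.9 TPM in treated and at 25.8, 42.9, 13.2 and 27.9 TPM in control libraries, which overlap. Control replicate 2, highest in Rgs10, held 6300 TPM of macrophage markers, and control replicate 3, at 200.68 TPM of Rgs10, held 15180 TPM. Epithelium and mesothelium markers were also highest in control replicate 2, at 2786 TPM. The part of these cells in the Rgs10 values was not tested.

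Rgs3, Rgs19 and Rgs18 differed little in their summed TPM. Rgs3, whose proteins act on Gi and Gq alpha subunits, was at 56.35, 71.43 and 35.75 TPM in treated libraries, against 51.89, 47.64, 52.13 and 48.93 TPM in control libraries. The controls lay close together while the treated libraries lay on both sides of them, and the log2 fold change was 0.06 (SE 0.22). The only treated library below the controls was the third. The log2 fold change was 0.33 (SE 0.12) without that library and 0.34 (SE 0.12) with median-of-ratios scaling. Without treated replicate 2 it was -0.15 (SE 0.25). Rgs19, known as GAIP and acting on Gi alpha subunits, was at 29.94, 43.8 and 23.97 TPM in treated libraries, against 28.54, 34.72, 39.57 and 28.95 TPM in control libraries, with a log2 fold change of -0.05 (SE 0.23). The sign of both turned without single libraries, between -0.15 and 0.33 for Rgs3 and between -0.28 and 0.15 for Rgs19.

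Rgs18, the regulator of platelets and their precursors, was the least abundant. It was at 1.35, 0.77 and 2.62 TPM in treated libraries, against 1.08, 0.66, 2.73 and 1.67 TPM in control libraries, with a log2 fold change of 0.03 (SE 0.31) that lay between -0.25 and 0.27 when single libraries were left out. Its highest values, in control replicate 3 and the third treated library, fell in the libraries with the most platelet marker TPM, 42.85 in the third treated library and 42.06 in control replicate 3, against 18.77 to 33.56 in the other 5. Of 10 platelet and megakaryocyte markers 3 passed the filter, and Ppbp, Gp1bb, Gp9, Gp6 and Clec1b stayed below 0.5 TPM in every library. The part of platelets in the Rgs18 values was not tested.

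**Figure D2:**
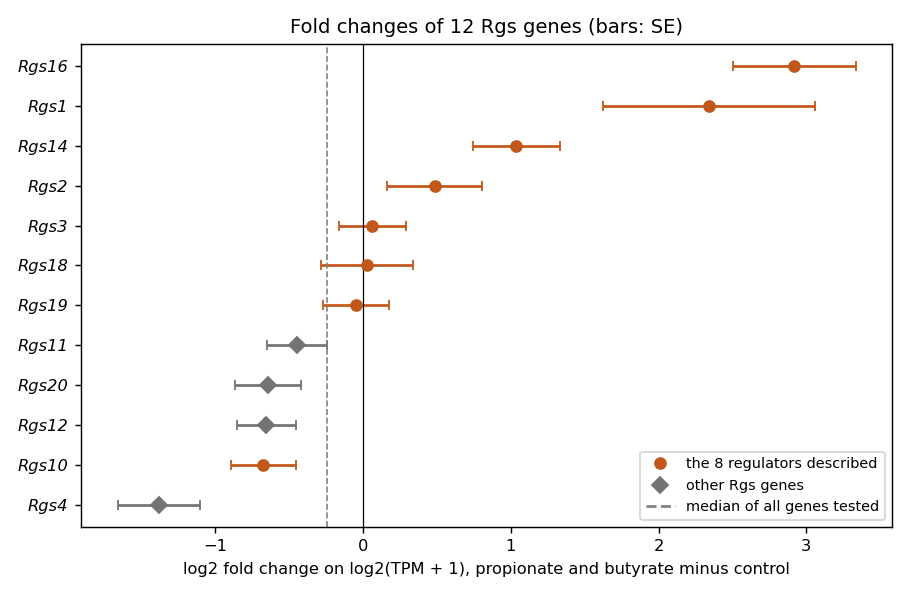
Log2 fold changes on the log2(TPM + 1) scale, propionate and butyrate minus control, for the 8 regulators (circles) and the 4 other Rgs genes that passed the filter (diamonds), with bars for the SE and a dashed line at the median of all genes tested, -0.24. The 8 run from 2.92 for Rgs16 to -0.67 for Rgs10, and the 4 others all lie below 0. Of these, Rgs4 and Rgs20 passed the filter through control libraries only.

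Across the 8, 2 had all treated libraries above all controls (background 4.82% of all genes tested), 1 had them below (background 25.7%) and 5 overlapped. All 8 passed the filter. Their median log2 fold change was 0.27, beside -0.24 for all genes tested. Relative to that median of all genes, the differences were 3.16 for Rgs16, 2.58 for Rgs1, 1.28 for Rgs14, 0.73 for Rgs2, 0.31 for Rgs3, 0.27 for Rgs18, 0.20 for Rgs19 and -0.43 for Rgs10. Leaving out mitochondrially encoded genes before rescaling gave 3.09 for Rgs16, 2.47 for Rgs1 and -0.56 for Rgs10 without subtracting the median.

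The order of the levels differed between the groups. In treated libraries the means ran Rgs1, Rgs10, Rgs3, Rgs19, Rgs16, Rgs2, Rgs14, Rgs18, and in control libraries Rgs10, Rgs3, Rgs1, Rgs19, Rgs2, Rgs14, Rgs16, Rgs18. Rgs16 was thus the fifth in treated and the seventh in control libraries. Of neighbours in the treated order, the ranges were apart between Rgs10 and Rgs3, between Rgs2 and Rgs14 and between Rgs14 and Rgs18, and in the control order between Rgs10 and Rgs3 and between Rgs2 and Rgs14. The other neighbours overlapped in their ranges.

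The summed TPM of all 21 Rgs genes was 528 ± 124 in treated (SD, n = 3) and 519 ± 75.6 in control libraries (SD, n = 4), while its make-up differed. Rgs1 held 15.8%, 30.4% and 27.1% of it in treated libraries, against 3.82%, 0.742%, 20.0% and 6.33% in control libraries. Rgs10 held 31.8%, 19.9% and 23.8% in treated libraries and 39.4%, 51.6%, 32.2% and 38.2% in control libraries, with treated below control throughout. Rgs16 held 2.18%, 8.92% and 3.96% in treated libraries and 0.669%, 0.438%, 0.290% and 0.294% in control libraries. Rgs19 held close to the same share throughout, 5.77% to 6.62% in treated and 6.12% to 6.64% in control libraries.

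**Figure D3:**
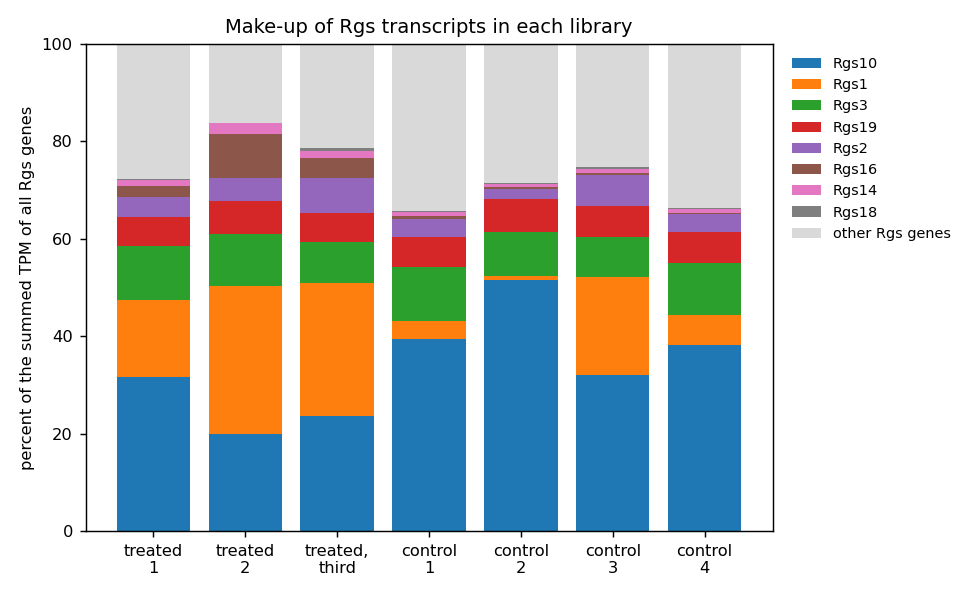
Share of each regulator in the summed TPM of all Rgs genes, in percent, for the 3 treated libraries (left) and the 4 control libraries, with all other Rgs genes in grey. Rgs10 (bottom) takes 19.9% to 31.8% in treated and 32.2% to 51.6% in control libraries, and Rgs1 (above it) takes 15.8% to 30.4% in treated and 0.742% to 20.0% in control libraries.

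Below the sums, some regulators differed in the shares of their transcript rows. The table lists rows by symbol with no transcript identifier, so rows are numbered here by their order under the symbol, and which isoform each stands for is not given. Of 17 Rgs3 rows, the leading one, row 14, held 36.2%, 41.2% and 32.7% of Rgs3 TPM in treated libraries, against 22.1%, 21.7%, 24.5% and 28.5% in control libraries. Row 9 held 20.4%, 27.4% and 19.5% in treated and 12.8%, 13.7%, 10.3% and 11.0% in control libraries. Row 4 held 15.6%, 7.97% and 14.3% in treated libraries, against 28.0%, 29.8%, 25.8% and 24.4% in control libraries. For rows 14, 9 and 4 the groups did not overlap, whereas for row 7 they did, at 9.45% to 18.9% in treated and 16.9% to 25.1% in control libraries. Over all genes that passed the filter, 16.6% of 19933 rows with at least 7% of their symbol in every library had groups that did not overlap, in either direction, and 3 of 4 such rows of Rgs3 did. Shares of rows under a symbol depend on each other, as a rise in some lowers the rest. The 3 rows are therefore not separate cases to set against that background. Such rows of Rgs1, Rgs2, Rgs10, Rgs14 and Rgs19 all overlapped between the groups.

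**Figure D4:**
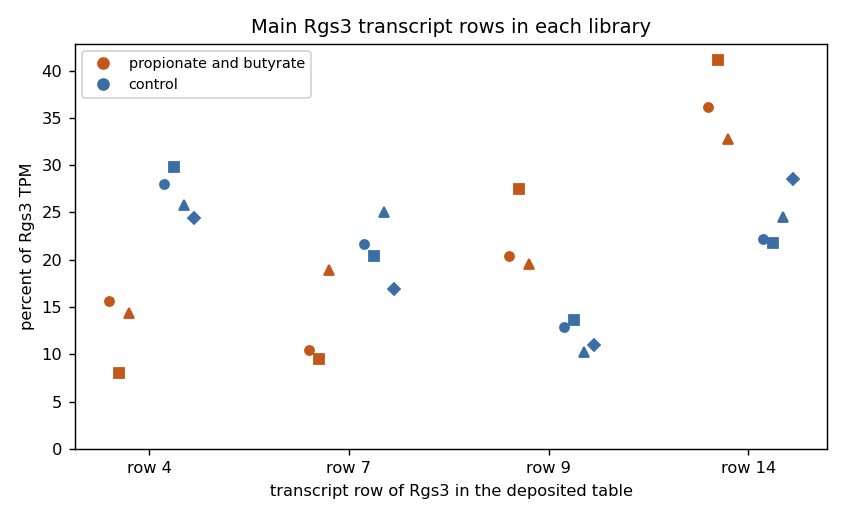
Percent of Rgs3 TPM held by each of its 4 main transcript rows, in treated (orange, left of each pair) and control libraries (blue), with symbols for the libraries of a group. Rows 9 and 14 are higher and row 4 is lower in all treated libraries, and row 7 overlaps.

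The other regulators rested mostly on 1 or 2 rows. Rgs16 and Rgs18 had 1 row each. The leading of the 6 Rgs10 rows held 95.0% to 97.0% in treated and 84.3% to 97.0% in control libraries, and the low value, in control replicate 2, went with 33.47 TPM in row 3, which was listed at 0 in the other 6 libraries. Of 9 Rgs1 rows, row 3 held 43.1% to 50.9% in treated and 6.70% to 38.1% in control libraries, which did not overlap, and row 4 held 30.4% to 36.3% in treated and 23.9% to 61.1% in control libraries. The 6.70% of row 3, in control replicate 2, stood for 0.26 of 3.88 TPM. As this is under 7%, row 3 is not among the rows behind the background of 16.6%. The leading of the 4 Rgs2 rows held 50.03% to 69.5% in treated and 59.4% to 68.4% in control libraries. That of the 12 Rgs19 rows held 59.2% to 66.7% in treated and 52.2% to 62.4% in control libraries, and that of the 4 Rgs14 rows 68.2% to 88.6% in treated and 55.0% to 100% in control libraries. Estimates of single rows are less certain than sums where rows share exons.

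Of the other 13 Rgs genes, 9 stayed at or below 0.64 TPM in every library and were not tested. The 4 that passed the filter were tested with limma across all genes, where 11.9% of genes were called at an adjusted p under 0.05, 4.30% higher and 7.59% lower. Of these calls 36.1% were higher, against 58.9% with median-of-ratios scaling, which put the median log2 fold change of all genes at 0.00. With no filter on low values 3 genes were called higher and 4 lower, none of them in the lists of G protein genes described from here on. Of the 4, 2 fell and 0 rose (4 lower and 0 higher at an unadjusted limma p under 0.05, which 23.6% of all genes tested met lower and 6.87% higher), and the median difference was -0.65 on the log2 scale, beside -0.24 for all genes tested. Rgs4 and Rgs20 reached 1 TPM in control libraries only, so they passed the filter through the group in which they were higher. The counts and the median of the 4 therefore give no direction for the family. Rgs4, a relative of Rgs16, was at 0.33, 0 and 0.08 TPM in treated libraries, against 1.34, 2.67, 3.13 and 1.1 TPM in control libraries. It fell by 1.38 on the log2 scale (SE 0.28, limma Benjamini-Hochberg adjusted p = 0.00576), with all treated libraries below all controls. At these low levels the size rested on the pseudocount, with -3.33 at a pseudocount of 0.1 and -0.45 at 5.

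Rgs12, the large relative of Rgs10 and Rgs14, was at 9.99, 12.91 and 10.05 TPM in treated libraries, against 16.64, 20.86, 17.46 and 16.34 TPM in control libraries, and the groups did not overlap. Its log2 fold change was -0.65 (SE 0.20, limma Benjamini-Hochberg adjusted p = 0.0471). That call was lost without any single library (adjusted p = 0.0549 to 0.153) with median-of-ratios scaling (-0.39, adjusted p = 0.122), with a pseudocount of 5 (adjusted p = 0.0522) and without the variance trend (adjusted p = 0.0529). Rgs20, the relative of Rgs19, was at 0.99, 0.71 and 0.6 TPM in treated and 1.45, 1.67, 1.92 and 1.99 TPM in control libraries (log2 fold change -0.64, SE 0.22, limma adjusted p = 0.0718). Rgs11, whose family pairs with the fifth G protein beta subunit, was abundant, at 128.1, 92.39 and 77.84 TPM in treated and 139.91, 123.69, 134.23 and 135.35 TPM in control libraries. It had a log2 fold change of -0.45 (SE 0.20, limma adjusted p = 0.150), and the groups overlapped.

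The receptors whose signals these proteins end rose in part. Of 41 leukocyte receptors coupled to G proteins, 33 were tested, of which 11 rose and 1 fell. Over all genes 4.30% were called higher and 7.59% lower. This list, like the others, was chosen with earlier results of these data known, so the comparison is a description. The median of the 33 was 0.43 on the log2 scale, beside -0.24 for all genes tested. Cxcr6, a chemokine receptor of effector and resident T cells, averaged 49.98 ± 40.2 TPM in treated (SD, n = 3) and 7.22 ± 1.89 TPM in control libraries (SD, n = 4) and rose by 2.38 (SE 0.37, limma adjusted p = 0.00123). Cxcr3, a chemokine receptor of effector T cells, rose by 2.26 (SE 0.36, limma adjusted p = 0.00137), and Gpr132, a receptor for lipids, by 1.97 (SE 0.34, limma adjusted p = 0.00219). The other 8 that rose, named after their values were seen, were Ccr7, Ccr9, Cxcr4, Cxcr5, S1pr1, S1pr4, Adora2a and Gpr183. Their log2 fold changes ran from 1.12 for Cxcr5 to 2.14 for S1pr1. Ccr9 reached 1 TPM in treated libraries only, and so passed the filter through the group in which it was higher. The 1 that fell, also named after its value was seen, was Fpr1, a receptor of neutrophils and macrophages for formylated peptides, at -1.23. Cd8a and Cd3e rose by 2.99 and 2.92 in the same libraries, and 4 of 4 natural killer cell markers tested rose. The part of T cells and natural killer cells in the receptor values was not tested.

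Receptors for short-chain fatty acids were low. Ffar2 reached 0.65 TPM in treated and 0.62 TPM in control libraries. Ffar3 was listed at 0 in all treated libraries and reached 0.07 TPM in control libraries. Hcar2, the receptor that also binds butyrate and niacin, was at 2.45, 5.5 and 7.96 TPM in treated and 4.55, 1.06, 8.14 and 3.46 TPM in control libraries, and was the only member of its list tested (log2 fold change 0.33, SE 0.42, limma adjusted p = 0.610). Its highest values fell in the third treated library and control replicate 3.

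Of 10 alpha subunits tested, 1 fell and 0 rose (4 and 2 at an unadjusted limma p under 0.05), and the median was -0.36. Over all genes 7.59% were called lower and 4.30% higher, and 23.6% and 6.87% met the unadjusted threshold. Gnai1 fell by 1.04 (SE 0.27, limma adjusted p = 0.0248), at 2.61, 1.22 and 1.42 TPM in treated and 3.44, 6.46, 3.21 and 5.63 TPM in control libraries. Its call was lost with median-of-ratios scaling (adjusted p = 0.0626) and without treated replicate 2, the third treated library or control replicate 2 (adjusted p = 0.0653, 0.0923 and 0.0514). Gnai2, the main Gi alpha subunit of leukocytes, averaged 209 ± 52.6 TPM in treated (SD, n = 3) and 233 ± 35.6 TPM in control libraries (SD, n = 4), with a log2 fold change of -0.18 (SE 0.22, limma adjusted p = 0.598). Gnai3 and Gnaq were at 0.04 (SE 0.20) and -0.29 (SE 0.20), with limma adjusted p = 0.913 and 0.334. Gna11 and Gna12 were at -0.53 and -0.60 (limma adjusted p = 0.0852 and 0.0856).

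Of 11 beta and gamma subunits tested, 1 rose and 0 fell (2 and 0 at an unadjusted limma p under 0.05), with a median of -0.28. A single call among 11 lies near the 11.9% of all genes called. At the unadjusted threshold 6.87% of all genes tested were higher and 23.6% lower. Gng2, a gamma subunit of lymphocytes, averaged 30.1 ± 18.9 TPM in treated (SD, n = 3) and 8.53 ± 0.912 TPM in control libraries (SD, n = 4) and rose by 1.55 (SE 0.30, limma adjusted p = 0.00465). Gng10 and Gng12 were at 0.77 and -0.40 (limma adjusted p = 0.0755 and 0.202).

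Some effectors that act in leukocytes rose. Of 23 effectors and other regulators tested, 8 rose and 0 fell (10 and 2 at an unadjusted limma p under 0.05), with a median of 0.20. Over all genes 4.30% were called higher, and 6.87% were higher and 23.6% lower at the unadjusted threshold. Rac2, a small GTPase that drives migration of blood cells, averaged 110.5 ± 64.6 TPM in treated (SD, n = 3) and 35.4 ± 6.97 TPM in control libraries (SD, n = 4) and rose by 1.47 (SE 0.31, limma adjusted p = 0.00739). Pik3r5, the adaptor of the kinase that beta and gamma subunits activate, rose by 1.54 (SE 0.32, limma adjusted p = 0.00740), and Prex1, an exchange factor for Rac, by 1.46 (SE 0.32, limma adjusted p = 0.00931). The other 5, named after their values were seen, were Dock2, Pde4b, Adcy7, Pik3cg and Adcy3, from 0.90 for Adcy3 to 1.38 for Dock2. The count was 4 without treated replicate 2 and 5 without control replicate 2. Treated replicate 2 held the most T cell and natural killer cell marker TPM, 2968 and 667.6, and their part in the effector values was not tested.

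Of 14 other proteins with an RGS or RGS-like domain, 0 were called by limma, with 2 higher and 1 lower at an unadjusted p under 0.05, beside 6.87% higher and 23.6% lower over all genes. Arhgef1, which carries signals of G12 and G13 alpha subunits in leukocytes, came nearest, at 107.05, 149.63 and 62.75 TPM in treated and 61.22, 49.34, 63.31 and 58.29 TPM in control libraries (log2 fold change 0.78, SE 0.25, adjusted p = 0.0563). It passed with median-of-ratios scaling (1.06, limma adjusted p = 0.00964), as it did when the third treated library was left out (1.12, limma adjusted p = 0.0111). Without treated replicate 2 it was at 0.50 (limma adjusted p = 0.215). Grk2, a receptor kinase, was at 0.60 (SE 0.26, limma adjusted p = 0.130), at 0.88 (adjusted p = 0.0251) with median-of-ratios scaling, and at 0.26 (adjusted p = 0.483) without treated replicate 2. Arhgef11 was at -0.46 (SE 0.20, limma adjusted p = 0.140).

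**Figure D5:**
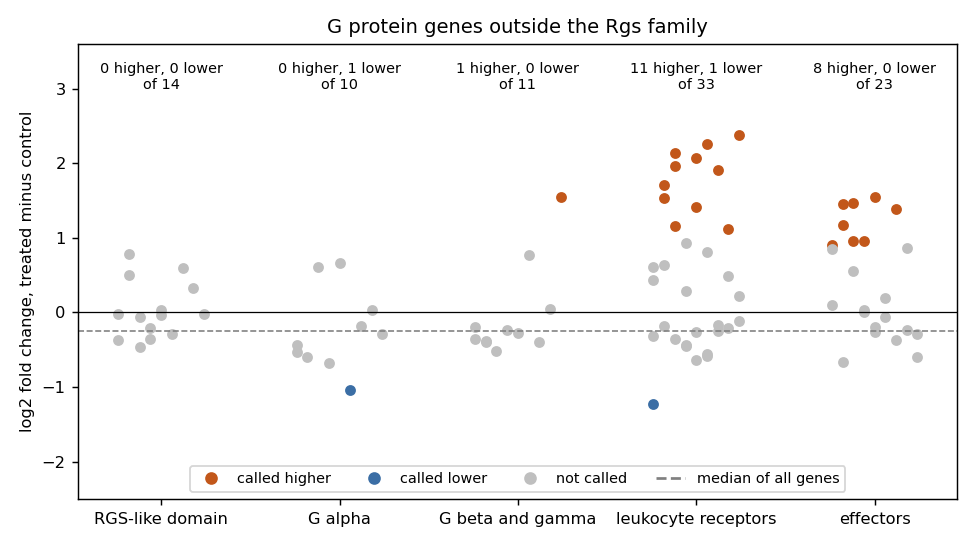
Log2 fold changes on the log2(TPM + 1) scale, propionate and butyrate minus control, of tested genes in 5 lists of G protein genes, each point a gene, coloured where limma called it higher (orange) or lower (blue), with a dashed line at the median of all genes, -0.24. The leukocyte receptors hold 11 of the 20 genes called higher and the effectors 8.

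The genes whose log2(TPM + 1) pattern over the 7 libraries was most like each regulator differed between regulators. Among 14967 genes, those nearest to Rgs16 by Pearson correlation were Klrg1, a receptor of effector cells (0.996), and the granule proteases Gzmk (0.992) and Gzmb (0.991). Nearest to Rgs14 were Fmnl1 (0.9996), a formin of leukocytes, Prdm1 (0.994), a transcription factor of effector lymphocytes and plasma cells, and Trpv2 (0.993). Nearest to Rgs1 were Phf11 (0.989), Tmem268 (0.975) and Nfkbiz (0.975), and nearest to Rgs2 were the monocyte chemokine receptor Ccr2 (0.986), Cited2 (0.985) and Cybb (0.981), the oxidase subunit of phagocytes. Rgs10 was nearest to Car12, Hyou1 and Aldoa (0.996, 0.996 and 0.995). Rgs18 was nearest to the immediate early genes Fos (0.939), Fosb (0.893) and Dusp1 (0.893), Rgs3 to Rpf1, Sirt7 and Snrpf (0.994, 0.992 and 0.991), and Rgs19 to Shkbp1, Imp4 and Plekhb2 (0.992, 0.989 and 0.984). These values describe 7 points that share their library, scaling and cell mixture, and with so many genes high values are found for most patterns.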

How the data were processed

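The authors deposited 1 table of TPM values, per the file headers, with 149132 transcript rows under a gene symbol and equal column sums. The build mm39 and the tools StringTie, HISAT2 and fastp are named, per the submitters' processing notes; roles, versions and the program that gave the TPM are not given in the sources used here. TPM carries no depth, so the depth is unknown and no counting interval was computed. Columns were matched to samples by name, except 1 treated column whose number no treated sample carries, taken as the third treated library without a pairing. Other value columns numbered 0. Values were summed per symbol (56422), leaving out 1001 rows without one (0.307% to 0.618% of TPM). Genes reaching 1 TPM in 3 or more libraries (14967) entered limma 3.58.1 (R 4.3.3) on log2(TPM + 1) with a variance trend and Benjamini-Hochberg adjustment over all of them. Marker sums were compared by exact permutation tests. The model was tested on simulated data.

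The members and lists were chosen with earlier results of these data known. Genes were named by a rule: the 8 regulators, every other Rgs gene past the filter, up to 3 genes of smallest p in each other list, 8 fixed genes, and for each regulator the 3 most correlated genes, without model-number names and receptor segments. Alternatives changed the pseudocount, filter, scaling, variance model, weights and block, and left out each library.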

Additional observations from a re-analysis of the deposited data

Results flagged for a closer look

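Among the regulators, the other named genes and the 11 marker sums, 1 value stood far from the rest of its group of 4 controls. Summed macrophage and monocyte markers were 15180 TPM in control replicate 3, against 6300 to 7122 TPM in the other 3 controls, a gap of 0.907 of the whole range. Chance marks about 1 in 20 groups this way. With 44 groups examined, 1 marked value is no more than that rate would give. The same library held the highest control values of Rgs1, 124.74 TPM, and Rgs2, 39.88 TPM. Groups of 3, such as the treated libraries, were not examined for this.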

How the results depend on the processing

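The differences of Rgs16, Rgs1, Rgs14, Rgs2 and Rgs10 kept their sign under all 17 alternatives; those of Rgs3, Rgs18 and Rgs19 did not. Array weights gave 3.94 for Rgs16, 1.63 for Rgs14, 0.42 for Rgs3 and 0.40 for Rgs19, and a pseudocount of 5 gave 1.98 for Rgs16. Genes called were 643 higher and 1136 lower, with 388 to 794 and 585 to 2909 when single libraries were left out, 3 and 4 with no filter, and 2246 and 4221 with array weights. Median-of-ratios scaling gave 1377 higher, and removal of mitochondrially encoded genes 1872 lower. With no filter 0 were called in each G protein list. With array weights 4 other Rgs genes, 7 proteins with an RGS-like domain, 8 alpha subunits, 4 beta and gamma subunits, 19 receptors and 15 effectors were called. For other Rgs genes 1 was called with a pseudocount of 5, a TPM of at least 5, median-of-ratios scaling, no trend or the replicate block. For proteins with an RGS-like domain it was 1 with a TPM of at least 5, robust variance or the replicate block, 3 with median-of-ratios scaling and 2 without mitochondrial genes. For alpha subunits it was 0 with a TPM of at least 5 and 2 with either scaling, and for beta and gamma subunits 2 with a TPM of at least 5, either scaling, robust variance or the replicate block. Leaving out single libraries gave 1 to 3, 0 to 2, 0 to 4, 1 to 2, 9 to 14 and 4 to 11 in the order of the 6 lists above. The log2 fold change of Gnai2 turned to 0.10 with median-of-ratios scaling, 0.17 with array weights and 0.029 without the third treated library (-0.34 to 0.029 over single libraries), and single libraries turned Gnai3 (-0.076 to 0.21) and Hcar2 (-0.057 to 0.72). The ratio of summed markers turned for platelets with median-of-ratios scaling (1.09), and without single libraries for dendritic cells (0.933 to 1.20), B and plasma cells (0.973 to 1.36) and neutrophils (0.445 to 1.45). The cause was not tested.

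The labels carry replicate numbers in both groups without saying that they pair the samples, and 2 numbers could be used. Deviations of same-numbered libraries from their group means correlated at -0.02 and -0.09 across genes, so the numbers were not taken as pairs. With the replicate block 870 genes were called higher and 1507 lower, and the differences were 2.83 for Rgs16, 2.60 for Rgs1 and -0.73 for Rgs10; Rgs12 was no longer called (adjusted p = 0.0602), while Arhgef1 (0.0256) and Gng10 (0.0243) were. With 3 and 4 libraries and unknown depth, levels near 1 TPM such as those of Rgs18 are the least certain.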
